A study of Mus musculus with 8 samples.

Results

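The genes described here are 39 genes of the lysosome and of its proton pump, the vacuolar ATPase (V-ATPase), taken from the 57010 genes of the files by a fixed list of symbols. Of these, 14 encode pump subunits or their accessory proteins, 15 encode lysosomal hydrolases, 4 encode lysosomal membrane proteins, 3 encode transcription factors of the MiT/TFE family, 2 encode autophagy proteins and 1 encodes the precursor of the saposins. The RNA came from peripheral lymph node naive CD4 T cells of wild-type C57BL/6 mice, which were sorted and cultured for 20 h on antibodies to CD3 and CD28, each at 4 µg/mL, in medium with 10% serum. The control group is 4 such cultures without added iron and the FAC group is 4 with the iron supplement that the labels call FAC. The labels give neither its dose nor whether the controls received a vehicle, and they give no age or sex of the mice. Each of 4 mice gave 1 culture to each group. All cultures were activated, so no comparison with resting cells can be made here.

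The lysosome is the acidic compartment in which proteins, lipids, glycans and worn organelles are broken down, and in which iron is released from ferritin. Acidity comes from the V-ATPase, a rotary pump whose cytosolic V1 sector hydrolyses ATP and drives proton transport through the membrane-bound V0 sector. TFEB, TFE3 and MITF bind a palindromic promoter element, known as the CLEAR element, that lies before many lysosomal and pump genes, and they enter the nucleus when nutrient signalling at the lysosome is low.

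The sequences below show which of these promoters hold the central letters of that element. Whether the choice of genes was independent of this element is not known, so the shares below only describe the listed genes. The search was for TCACGTGA (the CLEAR core, a palindrome, so both strands are covered) in the 250 bases before each transcription start in a RefSeq promoter table of build GRCm38.p6. Of the 39 genes, 34 were in that table, and Ctsb, Atp6v1b2, Atp6v1c1, Atp6v1g1 and Atp6v1h were not. The core was present before 4 of the 34 (11.8%), against 245 of all 27025 genes of the table (0.907%) and 179 of the 9177 tested genes found in it (1.95%). By class it was before 3 of 14 hydrolase genes and 1 of 10 pump genes. Capitals mark the core, and each run is read 5′ to 3′ on the gene's own strand and ends at or before the last base ahead of the start.
Ctsd (chr7:142387889-142387956, minus strand): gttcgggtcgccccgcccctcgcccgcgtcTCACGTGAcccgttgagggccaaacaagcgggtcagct
Ctsa (chr2:164833730-164833772, plus strand): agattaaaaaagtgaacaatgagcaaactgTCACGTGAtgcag
Atp6v1a (chr16:44139354-44139421, minus strand): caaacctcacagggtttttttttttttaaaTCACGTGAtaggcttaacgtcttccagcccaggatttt
Gla (chrX:134601163-134601255, minus strand): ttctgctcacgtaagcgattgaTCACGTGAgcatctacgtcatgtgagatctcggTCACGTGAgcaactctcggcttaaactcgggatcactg

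The core began 99 bases before the start of Ctsd, 13 before that of Ctsa and 132 before that of Atp6v1a (the distance of its first base). Gla held it 2 times, from 228 and from 195 bases before the start. The shorter E-box CACGTG, which lies inside the core, was before 9 of the 34 genes (26.5%), namely these 4 and Atp6v0b, Ctsl, Gaa, Glb1 and Lamp1, against 6.86% of all genes of the table and 10.3% of the tested ones. A match is a description of the letters and was not measured as a binding site.

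Library totals were 25410267 to 37350609 counts, so that 1 count equals 0.0272 to 0.0396 CPM (counts scaled to the library total of tested genes times its TMM factor, which corrects for composition). The 6 defining T cell genes (Cd3d, Cd3e, Cd3g, Cd4, Cd28 and Trac) summed to 1708 to 1791 CPM in control and 1750 to 1790 CPM in FAC libraries. The 11 myeloid markers, of interest because myeloid cells are rich in lysosomes, summed to 0.0793 to 0.544 CPM in control and 0.206 to 0.552 CPM in FAC libraries, and 6 of them, Lyz2 among them, had no count in any library. Summed B cell markers reached at most 0.379 CPM, and the sums of dendritic, natural killer, CD8, erythroid and stromal or endothelial markers reached at most 10.9 CPM; no tested marker was called. Tfrc, the transferrin receptor gene, whose transcript is degraded in iron-replete cells, fell from 324 ± 20.6 to 199 ± 9.15 TPM (a level scaled for transcript length; mean ± SD, n = 4; log2 change -0.79, SE 0.04, edgeR adjusted p = 3.97e-07). It was lower with FAC in 4 of 4 mice.

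None of the lysosome and pump genes changed past the threshold with FAC. Of the 38 tested, edgeR's quasi-likelihood test called 0 at an adjusted p under 0.05, against 3.27% of all 13378 tested genes (2.18% up and 1.1% down). At an unadjusted p under 0.05 there were 3 (7.89%), against 18.4%. DESeq2, limma on log2(TPM + 1), limma on the log2 deposited signal and edgeR with the mouse as a replicate block also called 0 of the 38; the last of these called 6.87% of all tested genes. The remaining gene, Cd63, had too few counts to be tested. The median log2 change (FAC over control) was 0.0045, against -0.0014 over all tested genes, and 21 of the 38 values were above 0 and 17 below. RNA of whole cultures was measured, so a lower share of cells expressing a gene and less RNA per cell cannot be told apart.

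The intervals limit how large a change could have gone unseen. For 32 of the 38 genes (84.2%) the approximate 95% interval of the log2 change lay wholly between -0.25 and 0.25, against 43.9% of all tested genes. The median SE was 0.050 over the 38 genes and 0.081 over all tested genes. The contrast of shares thus compares genes of unlike precision and does not by itself show an unusual stability. The 6 genes with wider intervals were Tfeb, Mitf, Ctsl, Gla and Manba, which averaged under 5 TPM in control cultures, and Gabarapl1, which differed between mice. The bound of 0.25 was chosen after the values were seen.

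**Figure D1:**
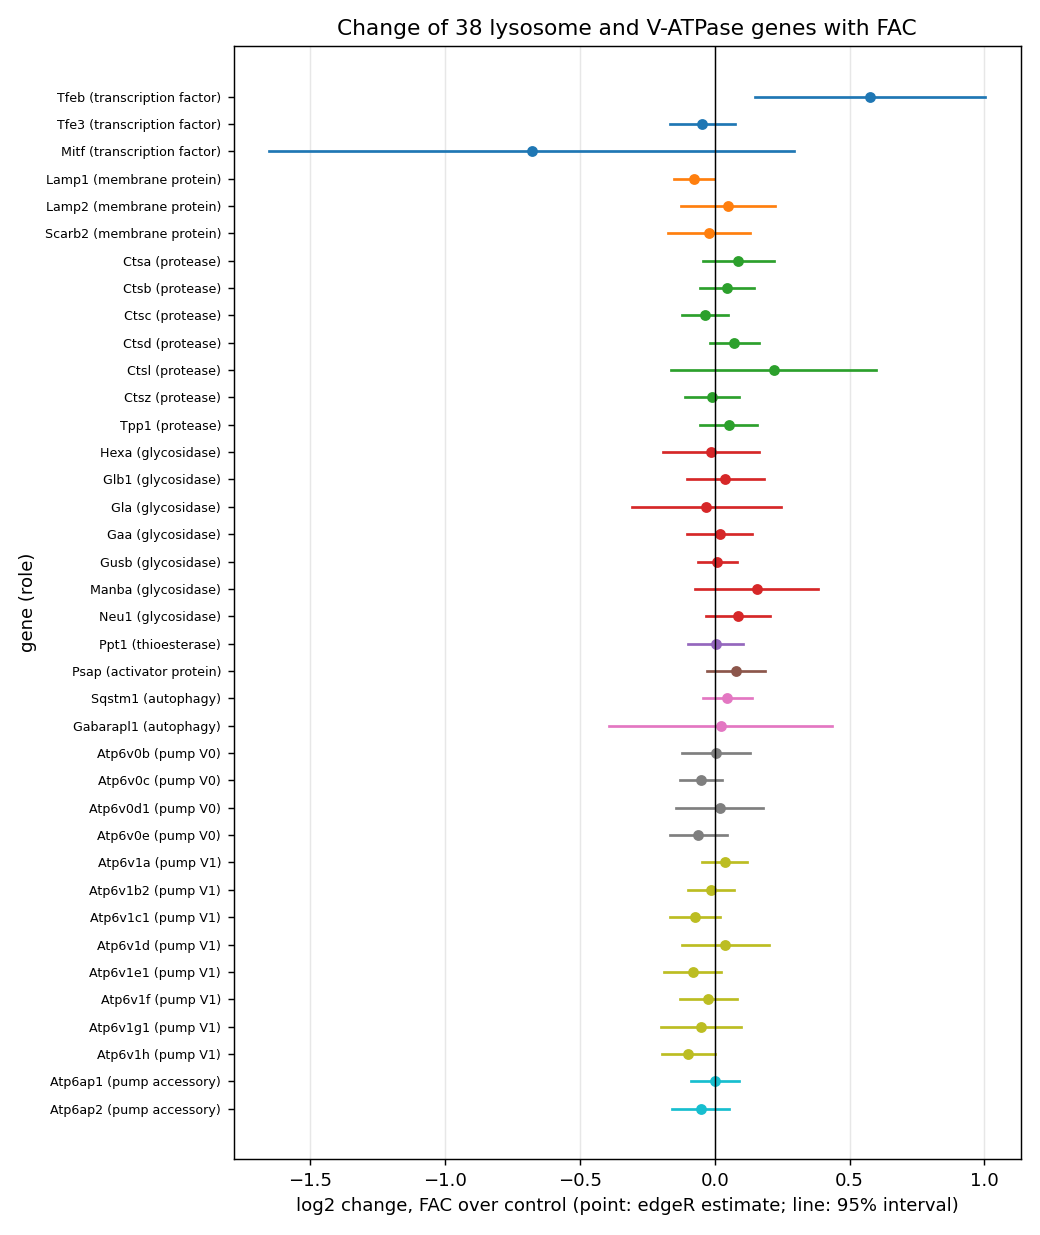
Log2 change of each of the 38 tested genes, FAC over control (horizontal axis; points are edgeR estimates and lines their approximate 95% intervals, 4 libraries a group), by role (vertical axis, colours). The intervals of all but Tfeb, Lamp1 and Atp6v1h include 0, and that of Mitf is the widest, from -1.65 to 0.29.

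Transcript levels spanned more than the response to iron did. TPM values scale counts for transcript length and so allow levels of different genes to be set side by side. Atp6v0c averaged 264 TPM over the 8 libraries, Atp6v1f 174, Lamp1 119 and Ctsz 103, whereas Tfeb averaged 1.74 TPM and Mitf 0.170 TPM in control cultures. In the order of control means, Atp6v0c was at the 95.8th percentile of tested genes and Mitf at the 1.48th. Together the 39 genes made up 1956 ± 28.2 TPM in control and 1986 ± 24.0 TPM in FAC cultures (SD, n = 4), of which the pump took 1077 ± 13.5 and 1071.5 ± 6.18 TPM.

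**Figure D2:**
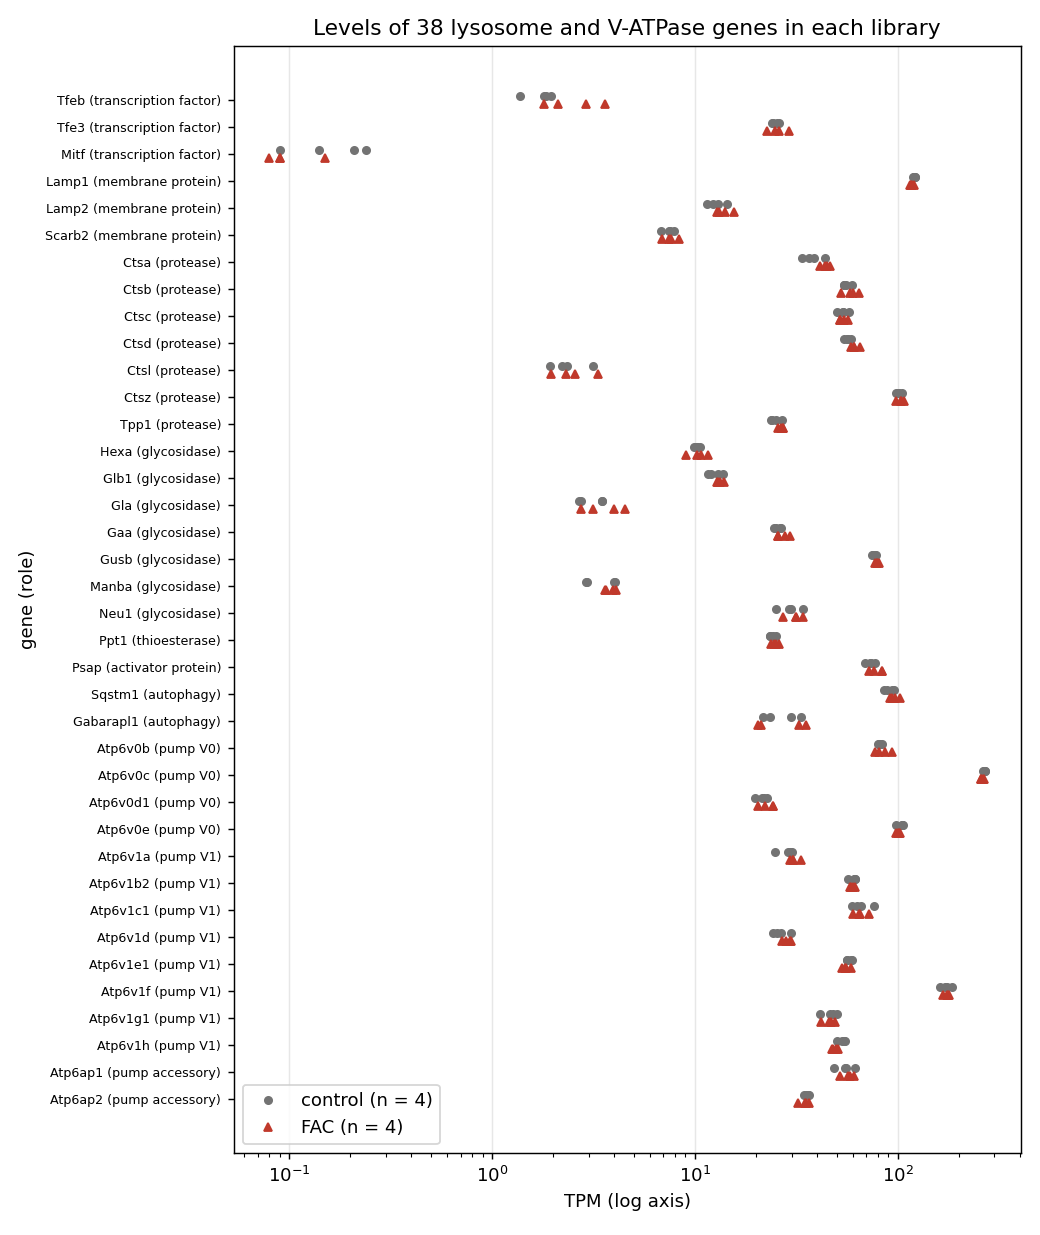
TPM (horizontal log axis) of the 38 tested genes in each library, with control as grey circles and FAC as red triangles (4 each), by gene and role (vertical axis). The symbols of both groups lie together for nearly every gene, while levels between genes run from under 1 TPM for Mitf to 264 TPM for Atp6v0c; Gabarapl1 forms a low and a high pair in each group.

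Among the transcription factor genes, Tfe3 was the abundant one. Tfe3 stood at 24.2, 24.0, 25.5 and 26.0 TPM in control cultures of mice 1 to 4 and at 22.8, 29.2, 24.9 and 25.9 TPM in FAC cultures. The groups overlapped, and the log2 change of Tfe3 was -0.05 (SE 0.06, 95% interval -0.16 to 0.07, edgeR adjusted p = 0.714). Tfeb, which encodes the best-known regulator of lysosomal genes, was scarce, with 52, 108, 80 and 64 counts in control and 88, 106, 111 and 128 in FAC libraries. In CPM, scaled for library size, Tfeb was 2.06, 2.94, 2.64 and 2.25 in control and 2.80, 3.25, 3.82 and 5.01 in FAC cultures of mice 1 to 4. All 4 mice had more with FAC, but the groups overlapped, since control mouse 2 lay above FAC mouse 1. Its log2 change of 0.57 (SE 0.20, 95% interval 0.15 to 1.00) was the largest positive value among the 38 and did not pass (edgeR adjusted p = 0.141, and 0.0867 with the mouse as a replicate block; the lowest of all alternatives was 0.0695). Mitf, the melanocyte and osteoclast member of the family, had 10 to 15 counts in control and 5 to 16 in FAC libraries, and its interval of -1.65 to 0.29 includes values of both signs. On the TPM scale, Tfe3 was 13.0 to 17.7 times Tfeb in control and 7.17 to 13.8 times Tfeb in FAC cultures, ranges that overlap.

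The V0 sector is the proton channel in the membrane. Its main ring protein is encoded by Atp6v0c, the most abundant of the 39 genes, which stood at 264, 269, 266 and 269 TPM in control and 257, 268, 257 and 264 TPM in FAC cultures. FAC values were lower in each mouse, yet the groups overlapped and the log2 change was -0.05 (SE 0.04, 95% interval -0.13 to 0.03, edgeR adjusted p = 0.478). Atp6v0b, which encodes the other proteolipid of the ring, was at 81.8 ± 1.46 and 84.9 ± 7.39 TPM (SD, n = 4) in control and FAC cultures. Atp6v0c exceeded it 3.21 to 3.35 times in control and 2.73 to 3.41 times in FAC libraries. Atp6v0d1, the central stalk subunit that couples ring and V1, was lower, at 21.5 ± 1.25 and 22.8 ± 1.82 TPM, and Atp6v0e, a small membrane subunit, was at 104 ± 3.72 and 101 ± 2.08 TPM. Their log2 changes of 0.01, 0.02 and -0.06 (Atp6v0b, Atp6v0d1 and Atp6v0e) were each within 2 SE of 0.

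The V1 sector hydrolyses ATP. Its catalytic subunit gene Atp6v1a was at 28.4 ± 2.36 TPM in control and 31.0 ± 1.79 TPM in FAC cultures, and the partner subunit gene Atp6v1b2 at 60.3 ± 2.15 and 59.7 ± 1.52 TPM. The ratio of Atp6v1b2 to Atp6v1a ran from 2.03 to 2.29 in control and from 1.83 to 2.05 in FAC libraries, although both proteins enter the pump in equal number. Atp6v1f, a rotor subunit gene, was the second most abundant of the 39, at 163, 171, 175 and 185 TPM in control and 167, 175, 177 and 178 TPM in FAC cultures, with overlapping groups (log2 change -0.02, 95% interval -0.13 to 0.08, edgeR adjusted p = 0.841). Atp6v1d, also of the rotor, had a log2 change of 0.04, and the peripheral stalk genes Atp6v1e1 and Atp6v1g1 had -0.08 and -0.05. Atp6v1c1, whose protein joins V1 to V0 when the pump assembles, had a log2 change of -0.07 and was lower with FAC in 4 of 4 mice. None of these 5 passed (edgeR adjusted p of 0.385 to 0.841, Atp6v1f included).

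Atp6v1h, the regulatory subunit that holds free V1 inactive, was the nearest to the threshold of the 14 pump genes. It stood at 64.3, 60.0, 61.7 and 61.5 CPM in control and 59.5, 59.5, 55.3 and 56.8 CPM in FAC cultures. The groups did not overlap in CPM, and the value was lower with FAC in each of 4 mice; in TPM they overlapped, since FAC mouse 2, at 50.9 TPM, lay above control mouse 2. The log2 change was -0.10 (SE 0.05, 95% interval -0.20 to -0.0005) and did not pass (edgeR adjusted p = 0.269, and 0.187 with the replicate block). Of the 38 genes, 2 had groups that did not overlap in CPM (5.26%), Atp6v1h and Lamp1, against 11.1% of all tested genes. The accessory subunit genes Atp6ap1, at 55.3 ± 5.48 and 57.2 ± 3.73 TPM, and Atp6ap2, which also encodes the prorenin receptor, at 35.6 ± 0.958 and 34.8 ± 1.82 TPM, had log2 changes of 0.0019 and -0.05 and did not pass (edgeR adjusted p of 0.988 and 0.618).

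Most tissue-restricted paralogs of the pump were at or near 0 counts in both groups. Where a subunit has a ubiquitous and a tissue-restricted gene, most restricted ones had 0 to 2 counts in every library. These were Atp6v1b1, Atp6v1c2, Atp6v1e2, Atp6v1g3, Atp6v0d2 and Atp6v0a4, and Atp6v1c2, Atp6v1e2 and Atp6v0a4 had 0 in all 8. A count of 0 allows up to 0.0816 to 0.119 CPM (3 counts). Atp6v0e2 had 2 to 8 counts. Atp6v1g2 was an exception, with 41 to 61 counts, and averaged 1.88 TPM in control cultures, against 46.5 TPM for Atp6v1g1. Of the large membrane subunit a, Atp6v0a2 (21.6 ± 2.24 and 23.0 ± 0.622 TPM) and Tcirg1 (20.0 ± 1.63 and 24.3 ± 2.82 TPM) were the main genes and Atp6v0a1 the minor one (2.71 ± 0.720 and 3.01 ± 0.582 TPM). Tcirg1, named here after its values were seen, had 22.3, 19.6, 19.9 and 18.4 TPM in control and 21.9, 28.2, 22.7 and 24.5 TPM in FAC cultures, groups that overlap on this scale. In CPM the groups did not overlap (21.5 to 22.8 in control, 23.6 to 29.0 in FAC), and Tcirg1 was higher with FAC in 4 of 4 mice. Its log2 change of 0.25 (SE 0.07) did not pass in the fit on the group alone (edgeR adjusted p = 0.0693) and passed with the replicate block (edgeR adjusted p = 0.0227).

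Membrane proteins line the lysosome and protect it from its enzymes. Lamp1, one of the most abundant of them, was at 119, 120, 122 and 122 TPM in control and 117, 115, 117 and 120 TPM in FAC cultures. On this scale the groups overlapped, whereas in CPM the control libraries (175.5, 184, 179 and 178) all lay above the FAC libraries (168, 167, 168 and 175.1), by a margin of less than 1 CPM at the closest pair. Its log2 change was -0.08 (SE 0.03, 95% interval -0.15 to -0.0042) and did not pass (edgeR adjusted p = 0.244). With a GC and length correction added to the replicate block, Lamp1 was the only one of the 38 to pass (edgeR adjusted p = 0.0465, log2 change -0.12). That fit called 1886 of all 13158 genes it tested, and its median log2 change over all of them was -0.046. Lamp2, needed for fusion with autophagosomes and for chaperone-mediated autophagy, was at 28.6 ± 2.63 and 29.5 ± 2.98 CPM (log2 change 0.05, edgeR adjusted p = 0.803). Scarb2, the receptor that carries glucocerebrosidase to the lysosome, was at 7.43 ± 0.434 and 7.58 ± 0.588 TPM (log2 change -0.02, edgeR adjusted p = 0.903). Cd63, a tetraspanin of late endosomes, had 0, 4, 0 and 2 counts in control and 4, 1, 0 and 0 in FAC libraries and is not in the authors' normalised table.

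**Figure D3:**
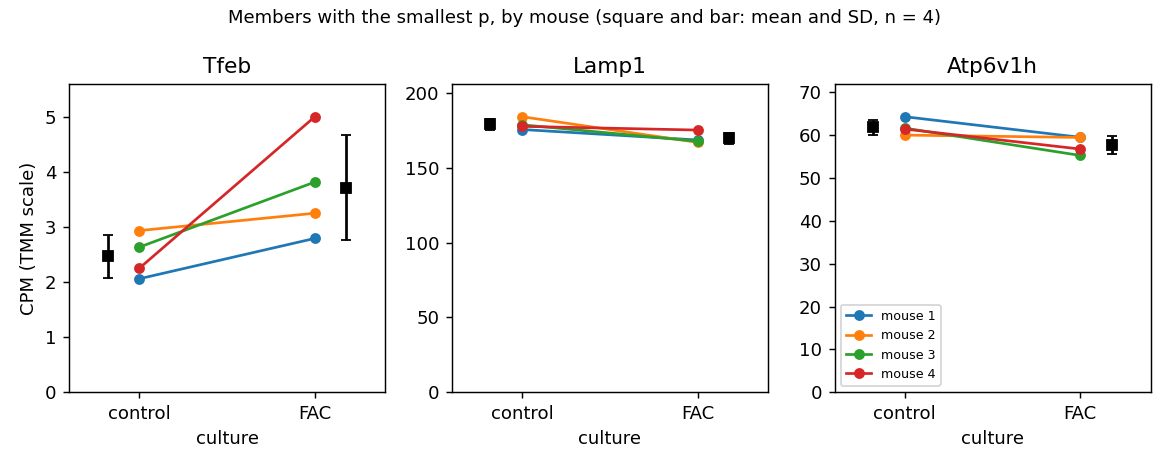
CPM of Tfeb, Lamp1 and Atp6v1h, the 3 genes of the 38 with an unadjusted p under 0.05, in control and FAC cultures of each mouse (coloured lines), with the mean and SD of each group (black, n = 4); the vertical axes start at 0. Tfeb is higher with FAC in all 4 mice by unequal amounts, and Lamp1 and Atp6v1h are slightly lower in all 4; no adjusted p passed.

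No protease gene passed the test. Ctsz, a carboxypeptidase gene and the most abundant hydrolase gene, was at 101, 105, 102 and 98.5 TPM in control and 104, 107, 98.4 and 104 TPM in FAC cultures, with no separation of the groups (log2 change -0.0095, 95% interval -0.11 to 0.09, edgeR adjusted p = 0.938). Ctsb, Ctsc and Ctsd, which encode cathepsins B, C and D, lay at 53.9 to 56.6 TPM in control cultures and had log2 changes of 0.05, -0.04 and 0.07. Ctsd was higher with FAC in 4 of 4 mice (76.0, 77.9, 78.0 and 80.4 CPM in control, 81.5, 80.7, 79.9 and 86.5 CPM in FAC), with control mouse 4 above FAC mouse 3, and did not pass (edgeR adjusted p = 0.385). Ctsa, which encodes a carboxypeptidase that also shields beta-galactosidase and neuraminidase, was likewise higher in 4 of 4 mice (log2 change 0.09, SE 0.06, edgeR adjusted p = 0.484). The same held for Neu1, Glb1, Manba and Atp6v1a, while Ctsc was lower in 4 of 4 mice. How many of all tested genes had the same direction in 4 of 4 mice was not counted. Tpp1, a tripeptidyl peptidase gene, had a log2 change of 0.05, and Ctsl, the cathepsin L gene, was scarce at 2.41 ± 0.522 and 2.56 ± 0.588 TPM (log2 change 0.22, 95% interval -0.16 to 0.60, edgeR adjusted p = 0.556). Ctsa and Ctsd are 2 of the 4 genes whose promoter holds the CLEAR core; the other 2, Atp6v1a and Gla, had log2 changes of 0.04 and -0.03. The median over these 4 was 0.055, against 0.0055 over 29 tested genes whose promoter in the table lacks the core. This difference was not tested.

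Glycosidases strip sugars from glycoproteins and glycolipids. Gusb, the beta-glucuronidase gene, was the most abundant of them and had the smallest SE of the 38 (0.03), with a within-group SD of log2 CPM of 0.012 in control and 0.022 in FAC cultures. Its log2 change of 0.0092 had a 95% interval of -0.06 to 0.08. Gaa (acid alpha-glucosidase, which degrades glycogen), Neu1 (neuraminidase), Glb1 (beta-galactosidase) and Hexa (a hexosaminidase subunit) stood at 25.7, 29.6, 12.6 and 10.3 TPM in control cultures and had log2 changes of 0.02, 0.09, 0.04 and -0.01. Gla, the alpha-galactosidase gene, and Manba, the beta-mannosidase gene, averaged 3.10 and 3.47 TPM in control cultures, and their intervals of -0.31 to 0.25 and -0.07 to 0.38 leave changes of that size unresolved. The edgeR adjusted p of these 7 genes was 0.439 or higher. Ppt1, a thioesterase gene that removes fatty acids from proteins, had a log2 change of 0.0035 (95% interval -0.10 to 0.11, edgeR adjusted p = 0.980).

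Psap encodes the precursor of the saposins, small proteins that present lipids to the hydrolases. It was at 73.9, 69.0, 73.3 and 77.5 TPM in control and 72.4, 76.6, 84.2 and 83.8 TPM in FAC cultures, with overlap (log2 change 0.08, SE 0.05, edgeR adjusted p = 0.428). Sqstm1, the gene of the autophagy receptor p62, was at 91.1 ± 4.68 and 96.3 ± 4.79 TPM (log2 change 0.05, SE 0.04, edgeR adjusted p = 0.608). Gabarapl1 encodes a protein that is attached to autophagosome membranes. It was at 23.0, 37.1, 25.9 and 36.6 CPM in control cultures and at 22.8, 38.3, 23.8 and 40.2 CPM in FAC cultures of mice 1 to 4. Both cultures of mice 2 and 4 thus lay above both cultures of mice 1 and 3, while the log2 change with FAC was 0.02 (SE 0.19, edgeR adjusted p = 0.968, and 0.892 with the replicate block). Its within-group SD of log2 CPM, 0.35 in control and 0.44 in FAC, was in control cultures the highest of the 38. The pattern of Gabarapl1 by mouse was noticed after the values were seen. Expected counts of Gabarapl1, Hexa, Ctsd, Atp6v1a and Atp6v1f were not whole in some libraries. Those of Lamp1, Ctsa, Ctsb, Glb1, Ppt1, Sqstm1, Atp6v0c and Atp6v1g1 were not whole in any of the 8. RSEM gives such counts where reads are divided between genes, so the levels of all these genes are less certain.

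Set beside each other, pump and hydrolase genes had medians of opposite sign in the fit on the group alone, but not with the replicate block plus correction for GC and length (-0.058 and -0.0061). The median log2 change was -0.037 over 14 pump genes (9 below 0) and 0.040 over 15 hydrolase genes (11 above 0). The pump median was -0.018 without FAC 3 and -0.022 without control 2, and the hydrolase median 0.012 without control 1 and 0.016 without FAC 4. Of the pump genes edgeR called 0 (1 with an unadjusted p under 0.05) and of the hydrolase genes 0 (0 with an unadjusted p under 0.05). All 14 pump intervals and 12 of 15 hydrolase intervals lay between -0.25 and 0.25. Within mice 1 to 4, the pump median was -0.053, -0.080, -0.056 and 0.043, and the hydrolase median 0.075, 0.021, 0.017 and 0.027. The pump median was thus below 0 in 3 of 4 mice and the hydrolase median above 0 in 4 of 4. Summed pump CPM ran from 907 to 942 in control and 888 to 914 in FAC cultures, and summed hydrolase CPM from 736 to 765 and from 753 to 786, so both sums overlapped between groups. Summed hydrolase TPM did not overlap (512 to 529 in control, 535 to 554 in FAC, a ratio of means of 1.05). Summed pump TPM had a ratio of means of 0.995. On the log2(TPM + 1) scale the median log2 change over all tested genes was 0.035. Whether that shift bears on the hydrolase sums was not tested. No test was made of the difference between these classes.

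**Figure D4:**
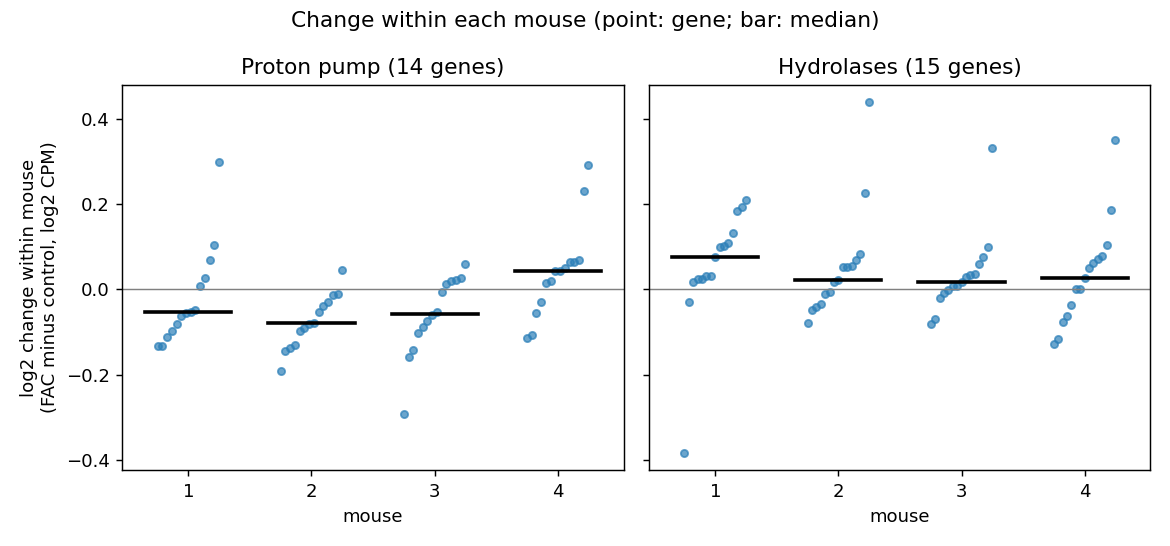
Log2 change within each mouse (vertical axis, log2 CPM of FAC minus control) of the 14 pump genes (left) and 15 hydrolase genes (right), with 1 point a gene and the median as a black bar, for mice 1 to 4 (horizontal axis). Pump medians lie below 0 in mice 1 to 3 and above it in mouse 4, and hydrolase medians lie between 0.017 and 0.075.

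Other genes of the lysosomal system, from 6 lists, were called in 5 of 135 cases (3.70%), against 3.27% of all tested genes. At an unadjusted p under 0.05 there were 34 (25.2%), against 18.4% of all tested genes, and 27 (20%) had groups that did not overlap in CPM, against 11.1%. EdgeR called 0 of 5 further pump genes (2 with an unadjusted p under 0.05; DESeq2 called 1), 0 of 40 further hydrolase genes (4; DESeq2 0), 0 of 13 genes of enzyme delivery to the lysosome (2; DESeq2 0) and 0 of 20 genes of nutrient sensing on its surface (4; DESeq2 0). Of 30 further membrane protein genes (12 with an unadjusted p under 0.05), Mcoln1 rose and Slc29a3 fell. Mcoln1, which encodes the calcium and iron channel of the lysosome, was at 16.3, 14.9, 19.2 and 20.0 TPM in control and 22.7, 22.5, 23.4 and 22.1 TPM in FAC cultures, with all FAC values above all control values (log2 change 0.34, SE 0.08, edgeR adjusted p = 0.0339). Slc29a3, a nucleoside transporter gene, went from 25.5 ± 2.07 to 22.3 ± 0.734 TPM (log2 change -0.25, SE 0.05, edgeR adjusted p = 0.0107). Of 27 autophagy genes (10 with an unadjusted p under 0.05), 3 rose. These were Ncoa4, the receptor that delivers ferritin to the lysosome (45.6 ± 3.92 to 57.7 ± 4.30 TPM, log2 change 0.22), Atg16l1, which takes part in the attachment of LC3 to membranes (0.21), and Tecpr1, a tether of autophagosomes (0.33), with edgeR adjusted p of 0.0241, 0.0303 and 0.0208. The direction was shared by 4 of 4 mice for each of the 5. With the replicate block 7 of the 135 genes were called higher and 1 lower, against 919 of all 13378 tested genes (6.87%) called in either direction. The added genes were Tcirg1, the ceramidase gene Asah1 and Vps11.

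The call of Mcoln1 ended without control 1, 2 or 3 or FAC 2 or 3 (edgeR adjusted p of up to 0.129), that of Ncoa4 without control 2, 3 or 4 or FAC 2 or 3 (up to 0.0813), that of Tecpr1 without control 1 or 2 or FAC 2 or 3 (up to 0.0929) and that of Atg16l1 without any 1 control or FAC 2 or 3 (up to 0.113). Slc29a3 stayed called in all 8 fits that left out a library, at an edgeR adjusted p of up to 0.0499. With an effective length offset, by limma on TPM and by limma on the deposited signal, 4 of the 5 genes were not called. In that order, the adjusted p was 0.0829, 0.229 and 0.0704 for Slc29a3, 0.0997, 0.0966 and 0.106 for Mcoln1, 0.0531, 0.0635 and 0.0633 for Ncoa4, and 0.104, 0.167 and 0.115 for Tecpr1. Atg16l1 was called in all 3 (0.0411, 0.0487 and 0.0494).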

How the data were processed

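Per the file headers, the authors deposited RSEM gene results for each library. The deposited expected counts are RSEM's estimates of reads for each gene with no scaling across libraries; here they were rounded to whole numbers. The deposited TPM values are scaled by RSEM for length and to a fixed total, and the effective lengths in bases served only as an offset. A further deposited table holds a normalised signal for 13751 genes; no source used here says how the authors made it. STAR 2.7.6a, RSEM 1.3.1, DESeq2 1.26.0 and build GRCm39 are listed, with no role, in the submitters' processing notes; annotation release and strand setting are not given in the sources used here. Libraries were made from 250 ng of total RNA with a stranded mRNA kit, per the labels' protocols.

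The quasi-likelihood test of edgeR 4.0.16 in R 4.3.3 was fitted over all genes on the group alone, with TMM factors, a minimum count of 10 and a minimum total of 15, which kept 13378 genes; p-values were adjusted by Benjamini-Hochberg over all of them and called under 0.05. An alternative fit had the mouse as a replicate block, since a mouse number marks 2 cultures of 1 animal. Deviations from the group means correlated across genes at 0.137, 0.0165, 0.0647 and 0.139 for mice 1 to 4. Between different mice the correlations ran from -0.180 to 0.0331. SE was taken as |log2 change| divided by the root of the F statistic, and intervals are approximate. Within-mouse changes used log2 CPM with a prior count of 2. Other alternatives used DESeq2 1.42.0, limma 3.58.1 on log2 values with a pseudocount of 1, other factors and filters, length and GC corrections and leaving out each library. On simulated counts the test recovered 170 of 200 changed genes among 13378. The simulation gave all genes the same spread between replicates and had no difference between mice. Its changes were larger than the fitted changes of all tested lysosome and pump genes except Tfeb and Mitf. The recovered share therefore does not apply to changes as small as those of most of these genes. Replicates differed by more than sampling noise. Reads carry no molecular identifiers, so limits from counts cover counting error only.

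The genes and the lists were chosen with earlier results of these data known. By rule all 39 genes are named, with values per library for those called or among the 4 most abundant, and the called genes of the pathway lists; others given per library were chosen after their values were seen. Of 155 pathway symbols 152 matched a gene. Symbols are those of the deposited table or, for genes outside it, of a gene name table; GC content and transcript length came from GENCODE M21. Promoters are of RefSeq on GRCm38.p6, not the build of the files, and were joined by symbol only.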

Additional observations from a re-analysis of the deposited data

Results flagged for a closer look

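In groups of 4, a library was marked where its gap to the nearest other library took a larger part of the group's range than Dixon's 95% critical value for 4 values. Of 76 such groups (38 genes, 2 groups each), 5 were marked, and chance marks about 1 in 20. Mitf was at 0.508 CPM in FAC mouse 1, against 0.153 to 0.196 CPM in the other FAC libraries, at 16 counts against 5 in each. Ctsa was at 37.2 CPM in control mouse 1, below the 43.3 to 44.5 CPM of the other controls. Ctsb was at 116 CPM in FAC mouse 4, above 101 to 104 CPM, and Atp6v0c at 205 CPM in control mouse 2, above 194 to 195 CPM. Atp6v1d was at 30.2 CPM in FAC mouse 1, above 27.7 to 28.0 CPM. These libraries are of 4 different cultures, FAC mouse 1 appearing 2 times.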

How the results depend on the processing

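Of 38 genes under 17 alternatives, 1 value passed: Lamp1, lower, with the replicate block plus correction for GC and length, so 1 of the genes was called there and 0 in the other 16 alternatives. Over all tested genes, 438 were called (66.4% of them higher with FAC), 919 (59.2% higher) with the mouse as a replicate block, 1886 (27.0% higher, where the median of all genes was -0.046) with the block and the GC and length correction, 797 by DESeq2, 736 with no filter on low counts, 195 with an effective length offset, 156 by limma on the deposited signal and 144 (77.8% higher) by limma on TPM. Leaving out 1 library gave 147 (without FAC 3) to 549 calls, with 168 without FAC 2 and 188, 209 and 247 without control 1, 2 and 3. The replicate block changed no call among the 38 genes. The pump median of -0.037 stayed below 0 in all alternatives, at -0.013 by limma on TPM, -0.061 on the deposited signal, -0.058 with the block and GC and length correction, and -0.018 (without FAC 3) to -0.050 with 1 library left out. The hydrolase median was 0.072 by limma on TPM and -0.0061 with the block and GC and length correction, and 0.012 (without control 1) to 0.056 with 1 library left out. The causes were not tested.

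In 19 genes the sign of the log2 change, none of them called, differed from that of the fit on the group alone in at least 1 alternative, by values of up to 0.18. By limma on TPM these were Tfe3 (0.036), Scarb2 (0.024), Ctsc (0.000476), Ctsz (0.025), Hexa (0.014), Gla (0.16), Gabarapl1 (-0.0056) and Atp6v1f (0.0080). With an effective length offset they were Tfe3 (0.0056), Gla (0.18) and Gabarapl1 (-0.026), and on the deposited signal Gla (0.15), Gusb (-0.0013), Ppt1 (-0.0017) and Gabarapl1 (-0.055). With no filter they were Gusb (-0.0031), Ppt1 (-0.0089), Atp6v0b (-0.0073) and Atp6ap1 (-0.011), and by DESeq2 Atp6ap1 (-3.48e-05). With the block and GC and length correction they were Ctsb (-0.0061), Gaa (-0.039), Gusb (-0.039), Ppt1 (-0.039), Sqstm1 (-0.0049), Gabarapl1 (-0.029), Atp6v0b (-0.029), Atp6v0d1 (-0.029), Atp6v1a (-0.0052) and Atp6ap1 (-0.034). With 1 library left out, values ran from -0.022 to 0.089 for Lamp2, -0.072 to 0.017 for Scarb2, -0.0014 to 0.066 for Ctsb, -0.032 to 0.025 for Ctsz, -0.066 to 0.042 for Hexa, -0.11 to 0.061 for Gla, -0.016 to 0.052 for Gaa, -0.000471 to 0.018 for Gusb, -0.019 to 0.016 for Ppt1, -0.12 to 0.15 for Gabarapl1, -0.034 to 0.048 for Atp6v0b, -0.043 to 0.065 for Atp6v0d1, -0.014 to 0.12 for Atp6v1d, -0.057 to 0.0022 for Atp6v1f and -0.013 to 0.015 for Atp6ap1. The effect of depth on these values was not tested. Over all tested genes the median log2 change was itself 0.035 by limma on TPM and -0.046 with the block and GC and length correction.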
